A study of Mus musculus with 8 samples.

Results

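The Kruppel-like factor family was followed through the conversion of mouse germ cells to pluripotent stem cells on 8 one-colour arrays. Members were the probes whose annotated gene, under its current or an older symbol, is Klf2, Klf3, Klf4, Klf5, Klf6, Klf7, Klf9, Klf10 or Klf13. Each of the 9 genes had 1 probe, so 9 of 23473 probes and 9 of 16390 named genes were members. All 9 probes had a value on all 8 arrays. Klf1, Klf8, Klf11, Klf15, Klf16 and Klf17 also had a probe and were not members.

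The study had 4 groups of 2 arrays, all from cells with a Nanog-GFP reporter: primordial germ cells, the precursors of eggs and sperm (E11.5 PGC, named for the day of the embryo), cells after 3 days (Day3) and 6 days (Day6) of culture, and embryonic germ cells (EG), a self-renewing pluripotent line that arises from germ cells. Day3, Day6 and EG are named for 2i+A83, a mix of PD325901 at 1 µM, CHIR99021 at 3 µM and A83-01 at 250 nM, which block MEK, GSK3 and the receptors of Activin and Nodal in that order. The labels give every sample, E11.5 PGC included, the same medium with 15% serum replacement, LIF and bFGF, and the same inhibitors. Cell sorting was used to purify candidate cells during culture, per the series' design text, and the gate is not given in the sources used here. Nothing in the labels says whether the 2 samples of a group came from separate animals or cultures, or whether EG is 1 line, so p-values measure the spread between these samples, which may be technical.

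Kruppel-like factors are zinc finger proteins that bind GC-rich and CACCC-type DNA. Klf2, Klf4 and Klf5 are known as regulators of naive pluripotency in mouse embryonic stem cells, where Klf4 lies downstream of LIF and STAT3, Klf2 is needed when the MEK pathway is blocked, and the members can partly replace each other. Klf3 is a repressor that works through the CtBP corepressors, Klf9, Klf10 and Klf13 bind the Sin3a corepressor, and Klf6 and Klf7 are related activators.

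Klf9, Klf4 and Klf3 were higher in cultured cells and EG than in E11.5 PGC, and Klf7 was lower at Day6. Sequence upstream of the first 3 is shown because these genes rose against E11.5 PGC in all 3 later groups. The stretches are the 250 bases before the RefSeq gene start (GRCm38.p6), and capitals mark the family's type of binding letters, CACCC and GGGCGG, on either strand. They lie at chr5:64803271-64803520 (plus strand), chr4:55532476-55532725 (minus strand) and chr19:23140976-23141225 (plus strand).
Klf3: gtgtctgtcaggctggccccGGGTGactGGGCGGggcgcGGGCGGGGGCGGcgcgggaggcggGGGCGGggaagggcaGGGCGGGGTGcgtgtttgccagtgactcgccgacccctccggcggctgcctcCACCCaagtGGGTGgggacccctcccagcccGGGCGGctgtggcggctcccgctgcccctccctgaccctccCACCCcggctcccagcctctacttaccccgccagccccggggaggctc
Klf4: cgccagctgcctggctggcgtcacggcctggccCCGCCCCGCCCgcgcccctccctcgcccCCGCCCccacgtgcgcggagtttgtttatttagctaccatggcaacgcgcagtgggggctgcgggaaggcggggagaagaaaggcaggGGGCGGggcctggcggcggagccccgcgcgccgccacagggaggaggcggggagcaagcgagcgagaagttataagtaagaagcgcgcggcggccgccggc
Klf9: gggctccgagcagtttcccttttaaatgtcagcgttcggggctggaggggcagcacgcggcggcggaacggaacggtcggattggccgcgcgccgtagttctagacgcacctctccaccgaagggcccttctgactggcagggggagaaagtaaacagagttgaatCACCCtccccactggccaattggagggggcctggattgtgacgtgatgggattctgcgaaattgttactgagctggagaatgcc

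CACCC was found 5 times upstream of Klf3, once upstream of Klf9 and not upstream of Klf4. Among 32851 windows of the same length before RefSeq start sites, of which a gene can have several, 52.0% held it at least once and 2.14% held it 4 or more times. GGGCGG was found 6 times upstream of Klf3, 4 times upstream of Klf4 and not upstream of Klf9, and 32.7% of all windows held it. In 1 place upstream of Klf3 a GGGCGG and a CACCC match overlap. TTCNNNGAA, the core of a STAT site, matched 1 time upstream of Klf9 and in none of the other 5 windows (7.02% of all windows). Windows at the outer start of the gene were used for 6 of the 9 members (not for Klf5, Klf7 and Klf10), and their GC content was 59.6% to 78.4%, against a median of 52.4% over all windows. A match describes letters in these windows and is no measure of binding.

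Values are spot intensity, with an array median near 20 in the deposited table, and changes are differences of log2 intensity. A gene is said to rise or fall where its adjusted p was under 0.05 in limma with Benjamini-Hochberg adjustment over all probes tested. The array names in the labels form a pair of series. The EG arrays both lie in series A, as does replicate 1 of the other groups, whose replicate 2 makes up series B. A second model took the series as a block. Blocked values of EG take the series difference of the other groups to hold for EG too.

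Cell type markers were summed by list on each array. The summed intensity of 8 germ cell markers was 10469 to 17389 in E11.5 PGC, 7081 to 8454 at Day3 and 1342 to 3923 at Day6 and in EG. Dppa3 made up most of the sums in E11.5 PGC (10543 and 5303) and at Day3 (5176 and 3798). At Day3 against E11.5 PGC only Dnd1 of the 8 fell, and with the block Ddx4 as well. The summed intensity of 8 pluripotency markers was 11321 and 11743 in E11.5 PGC and 13275 to 25485 on the later arrays. Not all of these 8 went up. At Day6 against E11.5 PGC 5 rose and Utf1 fell (-3.08, limma adjusted p = 0.00722). Dppa4 went from 3765 and 2992 to 1055 and 1202, a fall only with the block (limma adjusted p = 0.0174). The 10 gonadal somatic markers summed to 32 to 66 on all 8 arrays. The 11 fibroblast or mesenchyme markers summed to 161 and 220 on the E11.5 PGC arrays, 349 and 504 on those of Day3, 2733 and 203 on those of Day6 (replicates 1 and 2), and 1110 and 407 on those of EG. S100a4 and Thy1 made up most of the Day6 replicate 1 sum (1335 and 747). Acta2 (198), Col1a2 (129), Col3a1 (101) and Col1a1 (43.5) were also higher there than on replicate 2 (6.14, 19.9, 24.1 and 9.89). Twist1 was even between the Day6 arrays (82.6 and 84.1). Dcn went from 4.53 and 8.31 on the E11.5 PGC arrays to 75.9 and 173 on those of Day3. The 8 endothelial markers summed to 106 to 504 on the 8 arrays, highest in E11.5 PGC. Pecam1 (184 and 377) and Cldn5 (105 and 80.7) made up most of the E11.5 PGC sums. Eng (9.13 and 14.5) and Tek (1.74 and 1.91) were lower there than at Day6 (18.5 and 50.8, and 7.02 and 21.5). A marker without a value on an array, such as Cdh5 in EG, added nothing to the sum. The 6 blood markers with a probe summed to 149 to 187 on the E11.5 PGC and Day3 arrays, 377 and 245 on those of Day6, and 544 and 614 on those of EG. Laptm5 (200 and 261 in EG against 8.98 and 10.4 in E11.5 PGC) and Cd68 (283 and 307 against 64.2 and 73.6) carried that sum, while Tyrobp was lower in EG (11.2 and 10.4 against 43.3 and 34.6) and the median change of the list was -0.33. The part of these cell types in the results was not tested. In mixed RNA, fewer cells of a type and less RNA per cell cannot be told apart.

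At Day3 against E11.5 PGC, which asks what changes first in culture, 3 of 9 members rose (Klf3, Klf4 and Klf9) and 0 fell, where 2.08% of 20678 probes were called in either direction and 1.33% rose. Under the block 5 members rose (Klf2 and Klf5 as well) and 0 fell, where 8.34% of probes were called and 4.34% rose. The median change of the members at Day3 was 1.01, and that of all probes -0.13. At Day6 and in EG against E11.5 PGC the member median was 0.63 and 0.37, and that of all probes -0.16 each time. At Day6 against E11.5 PGC Klf3, Klf4 and Klf9 rose and Klf7 fell (8.61% of 20136 probes called, 4.34% higher and 4.28% lower), and in EG against E11.5 PGC the first 3 of these rose and 0 members fell (11.2% of 20761 probes called, 5.57% higher). With the block 4 members rose and 1 fell in each, Klf5 and Klf7 included. Of all probes 23.8% were then called at Day6 (9.5% higher and 14.3% lower) and 23.6% in EG (9.24% higher and 14.4% lower). These 3 comparisons share the E11.5 PGC arrays.

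Between later stages 0 of 9 members were called without the block. Of all probes, 0% of 20015 were called at Day6 against Day3, 0.169% of 20103 in EG against Day6 and 1.42% of 20554 in EG against Day3. An unadjusted p under 0.05 was found for 3, 2 and 4 members in that order. The same held for 1783, 2618 and 3244 of all probes tested. With the block Klf4 rose and Klf7 fell from Day3 to Day6 (1.8% of probes called, 0.974% higher and 0.829% lower), Klf9 was higher in EG than at Day3 (5.68% called, 3.18% higher), and 0 members were called between EG and Day6 (1.96%).

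**Figure D1:**
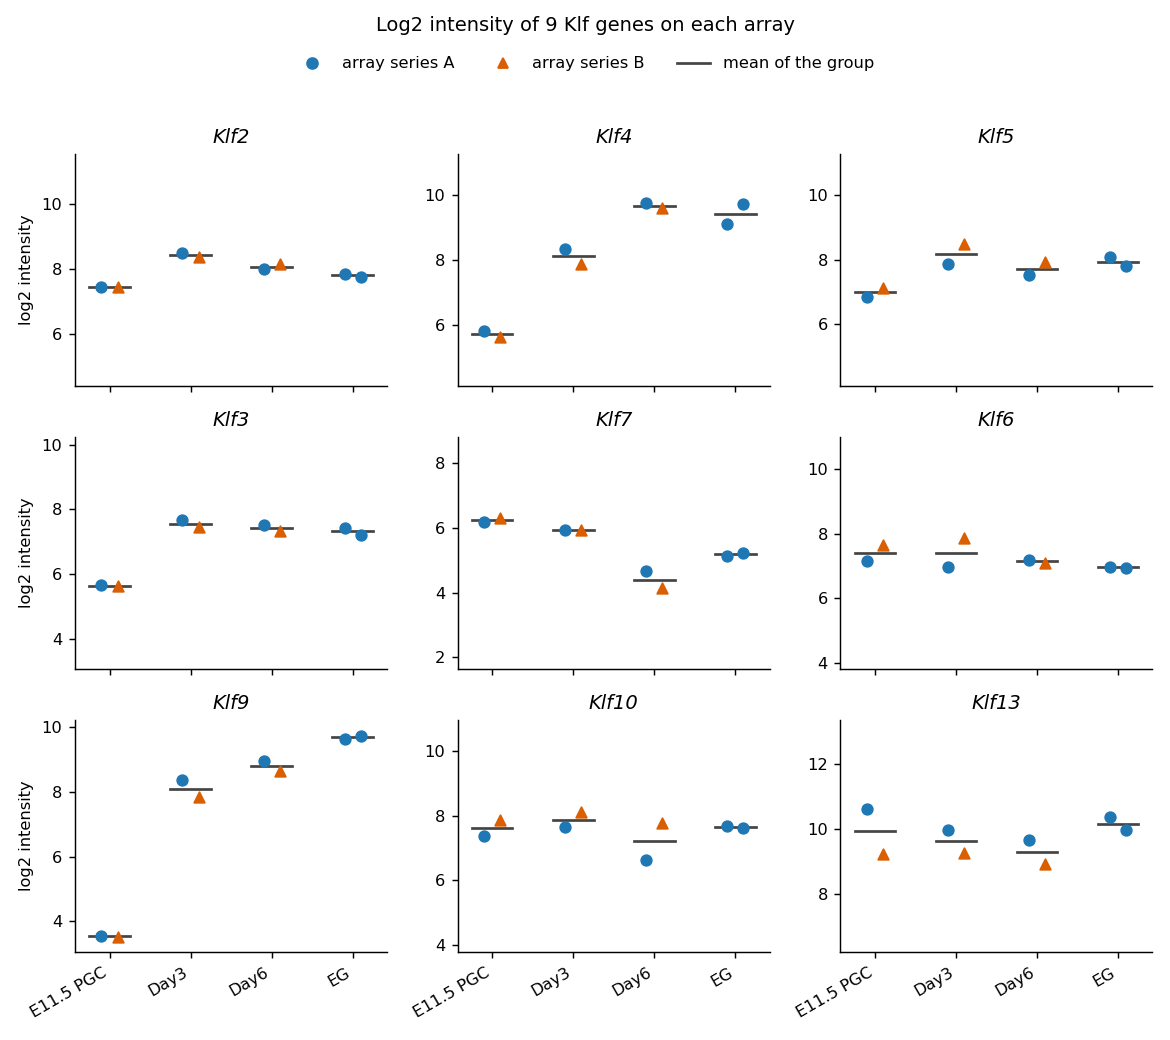
Log2 intensity (vertical axis) of each Klf gene on the 8 arrays by group (horizontal axis). Points are single arrays, with circles for array series A and triangles for series B, bars are group means, and every panel spans the same range of log2 units. Klf9 and Klf4 have the widest gaps between E11.5 PGC and the later groups, while the arrays of Klf6, Klf10 and Klf13 overlap between E11.5 PGC and Day3.

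Among the naive pluripotency factors, Klf4, one of the factors used to reprogram somatic cells, had an intensity of 55.9 and 49.2 on the E11.5 PGC arrays, 326 and 234 on those of Day3, 859 and 774 on those of Day6, and 550 and 846 on those of EG. The 3 later groups lie above E11.5 PGC on every array, Day6 lies above Day3, and Day6 and EG overlap. The rise at Day3, 2.40 ± 0.32 (5.27-fold; limma adjusted p = 0.0187), was followed by a change of 1.56 ± 0.32 (standard error, n = 2 arrays per group) from Day3 to Day6, with an adjusted p of 0.161 without and 0.0457 with the block. From E11.5 PGC to Day6 Klf4 rose by 3.96 ± 0.32 (15.5-fold; limma adjusted p = 0.00164), and to EG by 3.70 ± 0.32 (13-fold; limma adjusted p = 0.00216). Between Day6 and EG the change was -0.26 with a 95% interval of -1.02 to 0.50.

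Klf2 had an intensity of 172 and 174 on the E11.5 PGC arrays, 362 and 334 on those of Day3, 255 and 284 on those of Day6, and 231 and 216 on those of EG. Its arrays were highest at Day3 and lower in each later group, with no overlap between any pair of groups, but only the first step was called and only with the block. That step was 1.01 ± 0.25 (limma adjusted p = 0.107, and 0.0303 with the block), and its size within series A and B was 1.07 and 0.94. From Day3 to EG Klf2 changed by -0.64 ± 0.25 (limma adjusted p = 0.272, and 0.130 with the block), and its level in EG differed from E11.5 PGC by 0.37 (95% interval -0.21 to 0.95). Non-overlap alone, for this and every other member, is common with 2 arrays per group. It held for 41.1% of all probes between Day3 and E11.5 PGC and for 50% between EG and Day3. The share is not given for the other comparisons.

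Klf5, which acts in the early embryo and in embryonic stem cells, had an intensity of 116 and 139 on the E11.5 PGC arrays, 233 and 363 on those of Day3, 183 and 244 on those of Day6, and 271 and 225 on those of EG. The 3 later groups overlap each other and lie above E11.5 PGC. Klf5 was higher than in E11.5 PGC by 1.19 ± 0.33 at Day3, 0.73 ± 0.33 at Day6 and 0.96 ± 0.33 in EG, none of them called without the block (limma adjusted p = 0.143, 0.231 and 0.113). With the block all of these passed (limma adjusted p = 0.0243, 0.0495 and 0.0152). The later steps were not called: -0.46 from Day3 to Day6 (95% interval -1.23 to 0.31) and 0.22 from Day6 to EG (-0.55 to 1.00).

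The geometric mean intensity of Klf4 was 276 at Day3, 815 at Day6 and 682 in EG, that of Klf2 348, 269 and 223, and that of Klf5 291, 212 and 247. Whether the courses of these naive factors differ from each other was not tested.

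**Figure D2:**
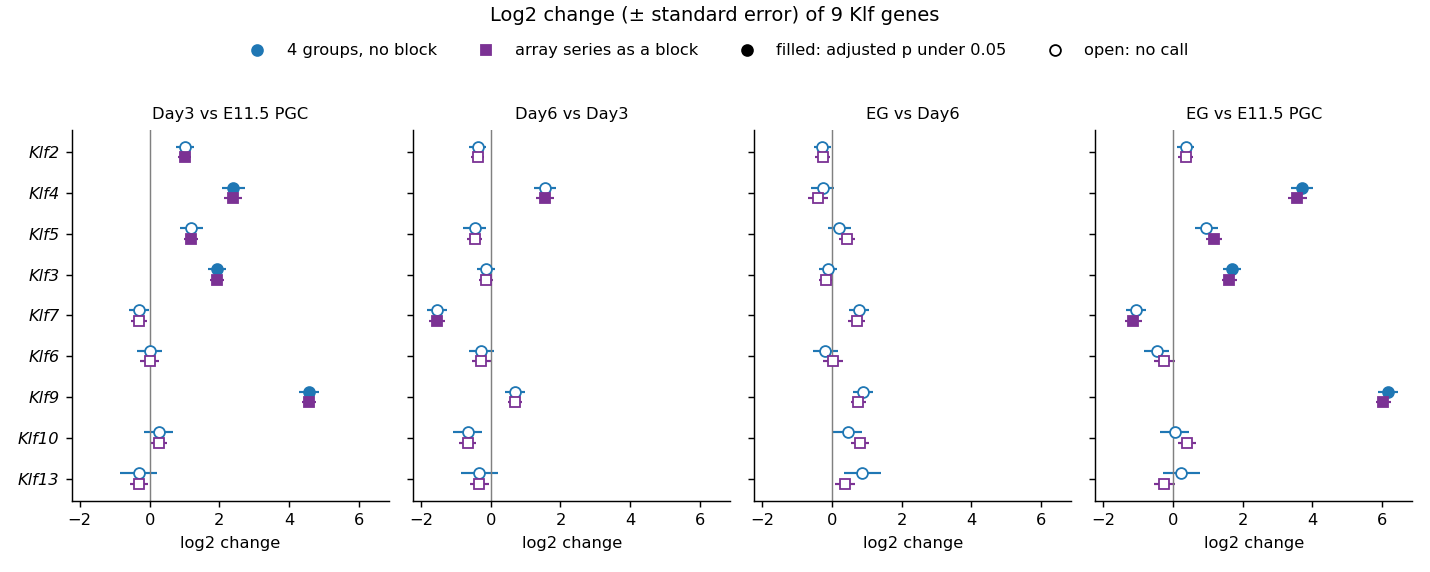
Log2 change with its standard error (horizontal axis) of each Klf gene (vertical axis) in 4 comparisons. Circles are the model without a block and squares the blocked model, and filled symbols passed an adjusted p of 0.05. Filled circles are Klf3, Klf4 and Klf9 against E11.5 PGC, and the panel of Day6 against Day3 has filled squares for Klf4 and Klf7.

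Among the corepressor-binding members, Klf9, a gene known to be induced by glucocorticoid and thyroid hormone, had an intensity of 11.7 and 11.6 on the E11.5 PGC arrays, 329 and 232 on those of Day3, 495 and 406 on those of Day6, and 806 and 859 on those of EG. No groups overlap, which alone is common with 2 arrays per group, and each lies above the one before. The E11.5 PGC level lies below the array median and how background was corrected is not stated, so the folds may understate or overstate the change. Klf9 was 23.7-fold higher at Day3 than in E11.5 PGC (limma adjusted p = 0.00241), 38.5-fold at Day6 (0.000864) and 71.5-fold in EG. The last corresponds to a rise of 6.16 ± 0.29 with a limma adjusted p of 0.00057. The later steps, 0.70 ± 0.29 from Day3 to Day6 and 0.89 ± 0.29 from Day6 to EG, were not called (limma adjusted p = 0.532 and 0.254; with the block 0.160 and 0.127). Over both steps, from Day3 to EG, the change was 1.59 ± 0.29 (limma adjusted p = 0.051, and 0.0243 with the block).

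Klf3 had an intensity of 50.1 and 49.8 on the E11.5 PGC arrays, 202 and 176 on those of Day3, 182 and 163 on those of Day6, and 173 and 149 on those of EG. It stood at one level in E11.5 PGC and at a higher one in every later group, where Day6 overlaps both Day3 and EG. The rise from E11.5 PGC was 1.92 ± 0.26 at Day3, 1.78 ± 0.26 at Day6 and 1.69 ± 0.26 in EG (limma adjusted p = 0.0183, 0.00856 and 0.0102). From Day3 to Day6 it changed by -0.13 (95% interval -0.73 to 0.47) and from Day6 to EG by -0.10 (-0.70 to 0.50).

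Klf10, first described as a gene induced by TGF-beta, had an intensity of 164 and 232 on the E11.5 PGC arrays, 198 and 274 on those of Day3, 99.3 and 218 on those of Day6, and 206 and 197 on those of EG. Klf13 had 1582 and 597 on the E11.5 PGC arrays, 1006 and 612 on those of Day3, 805 and 488 on those of Day6, and 1315 and 995 on those of EG. Outside EG, Klf10 was higher on the series B array of each group and Klf13 on the series A array. Neither was called in any comparison in either model. The 95% interval of the EG minus E11.5 PGC difference was -0.95 to 1.05 for Klf10 and -1.01 to 1.48 for Klf13, so a 2-fold rise lies inside both.

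Among the activators, Klf7, known for its part in the growth of neurons, had an intensity of 72.4 and 78.6 on the E11.5 PGC arrays, 61.3 and 61.0 on those of Day3, 25.3 and 17.6 on those of Day6, and 35.3 and 37.3 on those of EG. It was lowest at Day6, and no groups overlap, which alone is common with 2 arrays per group. Klf7 fell by 1.84 ± 0.28 from E11.5 PGC to Day6 (limma adjusted p = 0.0104). Most of that lay between Day3 and Day6, where the change was -1.53 ± 0.28 (limma adjusted p = 0.126, and 0.0355 with the block). EG lay 0.78 ± 0.28 above Day6 (limma adjusted p = 0.305; with the block 0.165) and 1.06 ± 0.28 below E11.5 PGC (limma adjusted p = 0.0545; with the block 0.0213).

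Klf6, also known as an early response gene, had an intensity of 144 and 204 on the E11.5 PGC arrays, 126 and 233 on those of Day3, 146 and 137 on those of Day6, and 125 and 124 on those of EG. The first 3 groups overlap, and EG lies just below them. At Day3 the change was 0.00 with a 95% interval of -0.85 to 0.85, and no comparison was called.

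**Figure D3:**
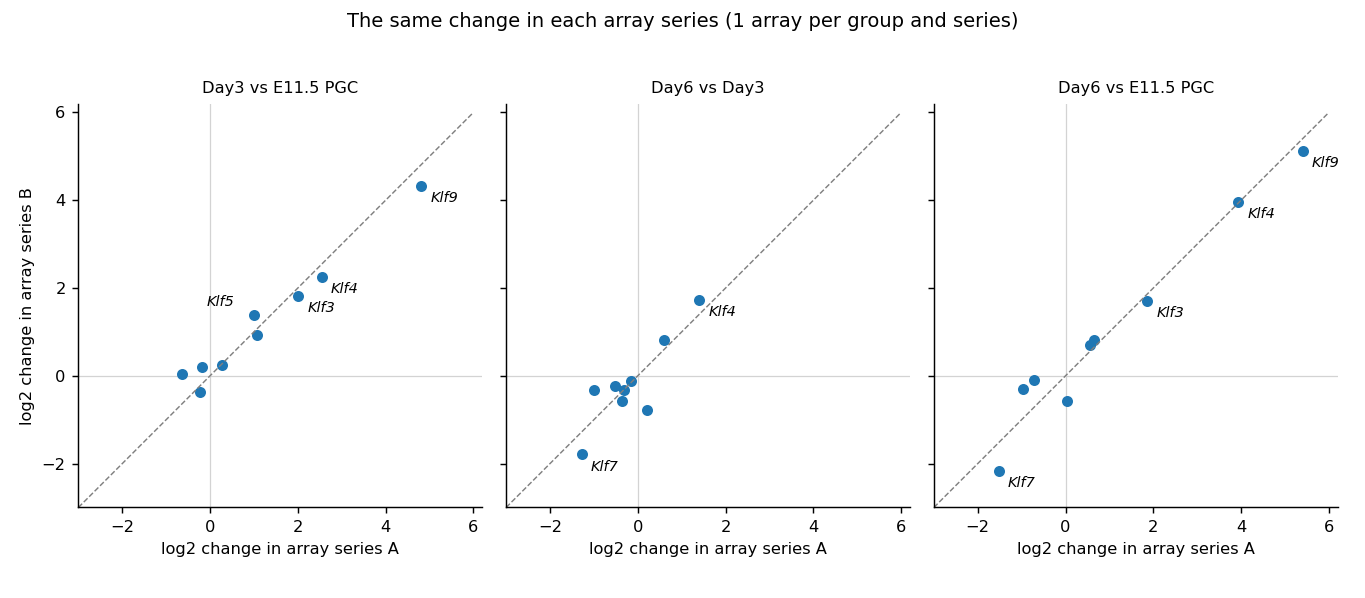
Log2 change of each Klf gene within array series A (horizontal axis) and within series B (vertical axis) for the 3 comparisons that both series hold. Each value is 1 array minus 1 array, and the dashed line marks equal change. Klf9, Klf4 and Klf3 lie near the line in the outer panels, and Klf4 and Klf7 stand apart from the other members between Day3 and Day6.

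Klf9, Klf3, Klf7 and Klf4 changed in the same direction within each series, as did Klf2, Klf5 and Klf10. Where the arrays of the groups compared do not overlap, a shared direction follows from that. Values for A come first: Klf9 changed by 4.81 and 4.33 from E11.5 PGC to Day3, and Klf3 by 2.01 and 1.82. From Day3 to Day6 Klf7 changed by -1.27 and -1.79. Klf4 changed by 3.94 and 3.97 from E11.5 PGC to Day6. Klf6 went opposite ways in the series, with -0.19 and 0.19 at Day3 against E11.5 PGC and 0.22 and -0.77 at Day6 against Day3. Klf13 did so at Day3 against E11.5 PGC (-0.65 and 0.04).

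The Day3 calls rest on few arrays. Leaving out 1 array kept the Klf9 call in 7 of 8 cases, and without E11.5 PGC replicate 2 its adjusted p was 0.0505 at a change of 4.56. The Klf4 call at Day3 ended without E11.5 PGC replicate 1 (limma adjusted p = 0.114) or replicate 2 (0.145) and without Day3 replicate 1 (0.0905) or replicate 2 (0.0614), at changes of 2.16 to 2.64. The Klf3 call ended without either E11.5 PGC array (limma adjusted p = 0.121 and 0.136), either Day3 array (0.0903 and 0.0741) or either EG array (0.0631), at changes of 1.81 to 2.02. At Day6 and in EG, the Klf4 and Klf9 calls against E11.5 PGC held without any 1 array. The Klf7 call at Day6 ended without E11.5 PGC replicate 1 (limma adjusted p = 0.0615) or replicate 2 (0.0749). The Klf3 call at Day6 ended without E11.5 PGC replicate 1 or 2 (0.0581 and 0.0632), and in EG without E11.5 PGC replicate 1 or 2 (0.0584 and 0.0751) or EG replicate 1 or 2 (0.0996 and 0.0854). A fit to only the 4 arrays compared ended the calls of Klf3 and Klf4 at Day3 (limma adjusted p = 0.0835 and 0.0679) and of Klf3 and Klf7 at Day6 (0.0588 and 0.0693) against E11.5 PGC.

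For each called member the probes of other genes nearest in pattern were found over the 8 arrays, as the smallest root-mean-square difference of log2 intensity after each probe was centred on its own mean. The nearest to Klf4 were Tstd3 (0.24), Pgrmc1 (0.27) and Apobec3 (0.28), where the root-mean-square size of the Klf4 pattern itself was 1.58. The nearest to Klf9 were Hspb1, a small heat shock protein gene (0.42), the lipid droplet gene Plin3 (0.45) and Ak7 (0.62), against a size of 2.38. Klf3 was closest to Actr2, an actin nucleation gene (0.14), Srek1ip1 (0.18) and Stat3 (0.21), against 0.79, and Klf7 to Nectin3 (0.20), Krcc1 (0.21) and Rmnd1 (0.21), against 0.73. Likeness over 8 arrays that share their groups is a description.

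**Figure D4:**
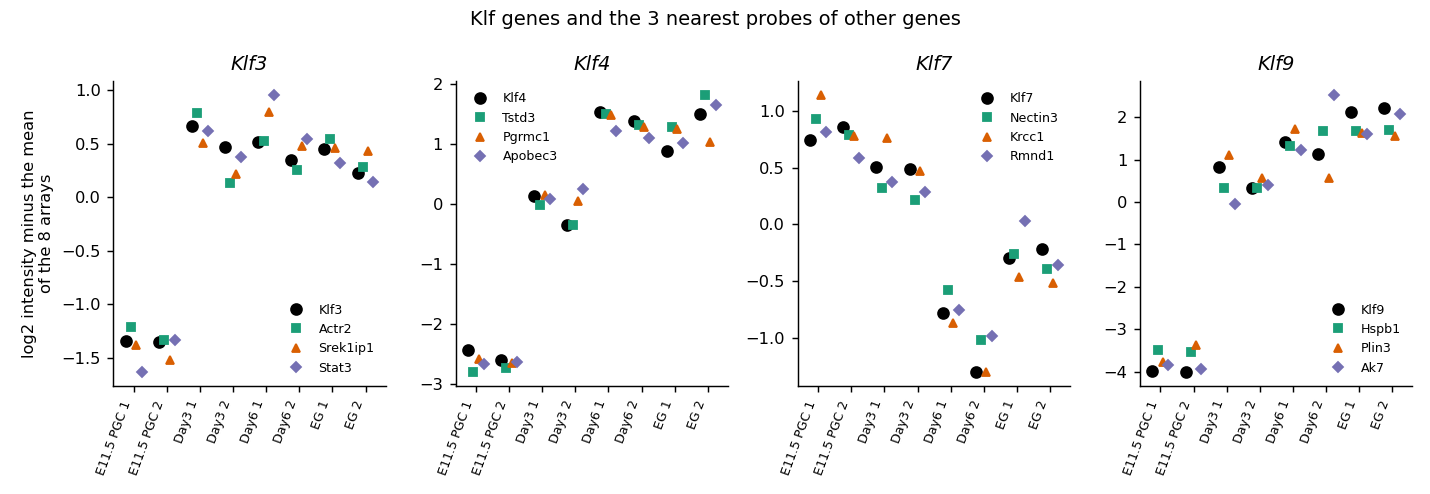
Log2 intensity minus the mean of the 8 arrays (vertical axis) for each called Klf gene (black circles) and the 3 nearest probes of other genes, by array (horizontal axis; the vertical scale differs between panels). The Klf4 probe and its neighbours step up at Day3 and again at Day6, and the Klf7 probe and its neighbours are lowest at Day6.

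Of the other KLF and SP genes, 12 of 16 listed had a probe. At Day3 against E11.5 PGC 0 of 12 were called by limma in either model, with a median change of -0.13. An unadjusted p under 0.05 was found for 1 without the block and 3 with it, and for 2984 and 5453 of 20678 probes. In EG against E11.5 PGC 1 of 12 rose and 0 fell, with a median of -0.34. Klf15, a factor of glucose and amino acid metabolism that also answers to glucocorticoid, had an intensity of 12.6 and 12.7 on the E11.5 PGC arrays, 26.6 and 19.9 on those of Day3, 22.6 and 33.0 on those of Day6, and 44.7 and 44.6 on those of EG. It rose by 1.82 ± 0.30 from E11.5 PGC to EG (limma adjusted p = 0.0133). With the block Klf11, Klf16, Klf17 and Sp4 fell and Klf15 rose at Day6 against E11.5 PGC, Klf17 by 1.47 to an intensity of 6.30 and 3.95. In EG Klf17 was 10.4 and 11.3, against 16.2 and 11.9 in E11.5 PGC.

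Of 17 genes of the LIF/STAT3 input and naive partners of Klf2, Klf4 and Klf5, 3 rose at Day3 against E11.5 PGC and 0 fell (median 0.29). They were the naive factor gene Tbx3 (3.70 ± 0.66), Fbxo15 (2.73 ± 0.41), a marker of embryonic stem cells, and Stat3 (1.98 ± 0.28). The receptor genes Lifr and Il6st were not called on the way to Day3: Lifr went from 20.4 and 23.4 to 15.9 and 17.3, and Il6st from 222 and 147 to 229 and 133. Stat3 stood at 22.8 and 28.0 on the E11.5 PGC arrays, 108 and 91.5 on those of Day3, 137 and 103 on those of Day6, and 87.9 and 78.2 on those of EG. All later arrays lie above E11.5 PGC. At Day6 6 of 17 rose and 0 fell, Tbx3 and Nr0b1 among them by 5.57 ± 0.66 and 3.38 ± 0.33, and in EG 5 rose and 1, the kinase gene Jak2, fell (-1.34). Socs3, a feedback inhibitor induced by STAT3, was 267 and 237 in E11.5 PGC and 435 and 434 in EG, and was not called in any comparison.

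ERK5 and MEF2, which control Klf2 in endothelial cells, were covered by 6 of 8 listed genes. None of the 6 was called by limma in any of the 6 comparisons without the block, with at most 1 at an unadjusted p under 0.05 in each. Map2k5 fell with the block at Day6 against E11.5 PGC (-0.99 ± 0.22; limma adjusted p = 0.0209). Map2k5 was 81.8 and 61.6 on the E11.5 PGC arrays, 60.2 and 55.6 on those of Day3, 35.5 and 36.1 on those of Day6, and 61.0 and 73.8 on those of EG.

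Of 11 glucocorticoid and thyroid hormone genes tested at Day3 against E11.5 PGC, beside Klf9 itself, 1 rose and 0 fell (median 0.44). The one was Sgk1, a serum- and glucocorticoid-induced kinase gene, at 150 and 100 on the E11.5 PGC arrays, 687 and 536 on those of Day3, 758 and 780 on those of Day6, and 561 and 590 on those of EG, a rise of 2.31 ± 0.30 at Day3. With the block 2 rose at Day3, Sgk1 and the metallothionein gene Mt2. Mt2 changed by 2.51 ± 0.52 at Day3 (limma adjusted p = 0.0641, and 0.0082 with the block). It rose by 2.34 ± 0.52 at Day6 (limma adjusted p = 0.0361), where 2 of 10 genes tested rose and 0 fell. With the block Errfi1 fell at Day6 as well (-1.10 ± 0.25; limma adjusted p = 0.0251). In EG against E11.5 PGC 1 of 11 rose and 0 fell, and with the block 2 rose and 2 fell (Errfi1 and Nr3c1). Fkbp5, Tsc22d3 and Per1 were not called in any comparison in either model. The receptor gene Nr3c1 was dim, at 5.52 and 7.96 on the E11.5 PGC arrays, 5.59 and 14.9 on those of Day3, 3.30 and 5.61 on those of Day6, and 2.47 and 1.49 on those of EG.

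Of 16 immediate early genes, the class that includes Klf4, Klf6 and Klf10 in serum and stress responses, 2 rose at Day3 and 0 fell (median 0.34). They were Btg2 (2.36 ± 0.32) and Ccn1, also called Cyr61 (2.36 ± 0.30). Fos was 82.8 and 220 on the E11.5 PGC arrays, 86.4 and 631 on those of Day3, 38.1 and 148 on those of Day6, and 15.5 and 36.1 on those of EG, without a call in any comparison. In EG against E11.5 PGC 2 rose and Egr2 fell by 1.68.

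KLF cofactors and ubiquitin ligases gave 0 limma calls among 15 genes at Day3 and at Day6 against E11.5 PGC. At each stage 5 of the 15 had an unadjusted p under 0.05, as did 2984 of 20678 and 4822 of 20136 probes. In EG 1 was higher and 3 were lower (median -0.91), where 11.2% of probes were called. With the block 1 rose and 2 fell at Day3 (8.34% of probes called), and 1 rose and 4 fell at Day6 (23.8%). The 3 that fell in EG were Hdac2 (-1.79 ± 0.30), Sin3b (-1.24 ± 0.29) and Sin3a (-0.97 ± 0.25), a histone deacetylase and the scaffolds of the corepressor that Klf9, Klf10 and Klf13 bind. Sin3a was 546 and 494 on the E11.5 PGC arrays, 284 and 261 on those of Day3, 251 and 266 on those of Day6, and 274 and 258 on those of EG, which with the block was already a fall at Day3 (-0.93 ± 0.19; limma adjusted p = 0.0361). Smurf1, a ubiquitin ligase gene, rose in EG by 1.22 ± 0.25. Wwp1, a ubiquitin ligase gene whose product acts on Klf2 and Klf5, was 147 and 186 in E11.5 PGC and 69.8 and 96.9 at Day3, a fall with the block (limma adjusted p = 0.0292) and not without it (0.208).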

How the data were processed

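Total RNA was amplified as aminoallyl aRNA, coupled to Cy5 by TORAY's protocol and measured on one-colour arrays, per the labels. The values deposited by the authors are linear spot intensity with array medians of 19.99 to 20.01. How background was corrected, how arrays were scaled and why 11674 cells are empty is not stated in the labels. Between 21126 and 22404 of 23473 probes had a value per array, and 2 arrays per group limit the precision. Array annotation gave 1 symbol to 16631 probes, of which 12622 were current, 3947 were older and replaced through RefSeq synonyms, and 62 were kept. Sequences come from RefSeq (GRCm38.p6).

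Values were converted to log2, missing cells stayed missing, and a probe was tested where all arrays of both groups had a value. limma 3.58.1 in R 4.3.3 (lmFit, eBayes; two-sided) was fitted to 8 arrays and 4 groups without a block, and again with the array series as a block. Without the block it was tested on simulated data for Day3 against E11.5 PGC. Those data had the same spread for every probe and no array series difference, so that test does not cover the series difference of these arrays. The members, the lists and the rule for named genes were chosen with earlier results of these data known. The rule names all members, at most 4 genes per list (called genes with the largest changes, otherwise the largest change) and 3 nearest patterns per called member. Klf11, Klf16, Sp4, Lifr, Il6st, Socs3, Map2k5, Nr3c1, Fos, Wwp1, Klf17, S100a4, Thy1, Col1a1, Laptm5, Cd68, Tyrobp and Sin3a at Day3 stand outside it and were chosen after their values were seen. The same holds for Acta2, Col1a2, Col3a1, Dcn, Twist1, Utf1, Dppa4, Pecam1, Cldn5, Eng, Tek, Cdh5, Errfi1, Fkbp5, Tsc22d3, Per1, Dppa3, Dnd1 and Ddx4.

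Replicate numbers were checked for pairing. Deviations from group means correlated across 19524 probes between E11.5 PGC, Day3 and Day6 (r = 0.547 to 0.694), which share array series by number. They did not correlate with EG (-0.025 to 0.061). Both EG arrays lie in series A, so the values of EG cannot show whether the other groups are paired. The blocked model takes the numbers of E11.5 PGC, Day3 and Day6 as pairs through their series. The model without a block does not.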

Additional observations from a re-analysis of the deposited data

How the results depend on the processing

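Of 918 alternative values of the 54 changes (9 members in 6 comparisons), 854 kept direction and side of the threshold, 23 lost a call, 20 gained one and 21 changed sign. The cause was not tested. With the array series as a block the members called were 5 at Day3 and 5 in EG against E11.5 PGC (3 without the block for each), 2 at Day6 against Day3 and 1 in EG against Day3 (0 without the block for both). For EG against Day3 the replicate block, quantile normalization, a pseudocount of 1.614, leaving out the dimmest 25% of probes, and trend with robust variance each gave 1, which was Klf9 every time. The Klf7 change in EG against E11.5 PGC was called in 6 of 9 other settings, with the replicate block at an adjusted p of 0.0389, the array series block (0.0213), the pseudocount (0.0333), without the dimmest 25% of probes (0.0378), with trend and robust variance (0.0371) and with 4 arrays alone (0.0388), and also without either Day6 array (0.0419). With the 4 arrays of the compared groups alone the members called were 1 at Day3 and 2 at Day6 against E11.5 PGC (main count 4). Without 1 array the count ranged from 0 to 3 at Day3, from 2 to 4 at Day6 and from 2 to 4 in EG against E11.5 PGC, and was 0 in the other comparisons. Values that changed sign were small and not called in either setting. They were, for Klf6 at Day3 against E11.5 PGC, 0.08 with quantile normalization and 0.03 with centring on probes measured on all arrays, and for Klf6 in EG against Day6 0.03 with the array series block. With that block they were -0.24 for Klf13 in EG against E11.5 PGC and 0.14 for Klf10 in EG against Day3. Without 1 array, Klf6 ranged from -0.45 to 0.44 at Day3 and from -0.72 to 0.17 at Day6 against Day3, and Klf13 from -1.01 to 0.39 and from -0.69 to 0.04. In EG against Day6 Klf3 ranged from -0.21 to 0.01, Klf4 from -0.57 to 0.05 and Klf10 from -0.11 to 1.02. Against E11.5 PGC, Klf10 ranged from -0.97 to 0.16 at Day6 and from -0.20 to 0.30 in EG, and Klf13 from -1.34 to 0.07 and from -0.47 to 0.94. In EG against Day3 Klf5 ranged from -0.56 to 0.08 and Klf10 from -0.44 to 0.03. Over all probes the Day3 count of 431 was 67 to 1725 in other settings and 4 to 555 without 1 array. The Day6 count of 1734 was 578 to 4790 and 430 to 1652. The EG count against E11.5 PGC of 2321 was 2226 to 4905 and 232 to 2809, that against Day6 of 34 was 0 to 395 and 0 to 6, and that against Day3 of 292 was 193 to 1167 and 0 to 422. At Day6 against Day3 the count of 0 was 0 to 361 and 0 without any 1 array. No member has a second probe, so that alternative could not be run.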

Other observations

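The array series differed inside a group over many probes. Deviations from group means correlated across 19524 probes between E11.5 PGC, Day3 and Day6 (r = 0.547 to 0.694). The median absolute log2 difference between replicates was 0.38, 0.47 and 0.49 in these groups and 0.21 in EG. Its size varied by gene: Junb was 127 and 128 on the E11.5 PGC arrays. Jun, a subunit of the AP-1 transcription factor, was 12.8 (series A) and 192 (series B) on the E11.5 PGC arrays, 7.09 and 113 on those of Day3, 6.97 and 56 on those of Day6, and 18.7 and 14.6 on the EG arrays, which lie in series A. Fos was also higher in series B in each of these groups. Sp4 went from 21.2 and 44.5 (E11.5 PGC) through 7.37 and 28.5 (Day3) to 7.24 and 15.9 (Day6). With the array series as a block Jun fell by 1.33 from E11.5 PGC to Day6 (limma adjusted p = 0.023), and without it the same change had an adjusted p of 0.707. Egr1 went the other way, with 180 and 85.3, 217 and 145, and 145 and 61.8 in series A and B. These genes were chosen after their values were seen.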
